A study of Mus musculus with 2 samples.

Results

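Annotated retained-intron transcripts of the C2C12 cell line were examined in long-read RNA sequencing of total RNA. They were chosen by label: every model that the deposited tables assign to a known transcript, that GENCODE M21 types as a retained intron, and that had a read in either library. This gave 2255 of the 21848 retained-intron transcripts in the annotation, among 19155 annotated transcripts with a read. The 2255 lay in 1881 genes, and 2226 of them lay in protein-coding genes. C2C12 is a mouse myoblast line that the labels trace to injured thigh muscle of C3H mice. The series has 1 group, untreated as far as the labels say, with 2 libraries given as biological replicates 1 and 2. All cells come from 1 line, so every comparison below is between these 2 libraries, and no condition can be compared.

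An intron is normally cut out of the RNA by the spliceosome while the gene is being transcribed. A transcript that keeps an intron may be an unfinished precursor, may be held in the nucleus until the intron is removed, or may reach the cytoplasm, where a stop codon inside the intron exposes it to nonsense-mediated decay. In muscle and other differentiating cells, intron retention is known as a way of tuning the output of a gene. Annotators give the type "retained intron" to transcripts without a coding sequence that hold intronic sequence relative to the coding transcripts of the gene. Such a model need not contain a whole intron.

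The libraries held 791850 reads in replicate 1 and 735077 in replicate 2, of which 598082 and 582947 were on known transcripts. A transcript without a read could have up to 3.79 reads per 1000000 reads of the library (RPM) in replicate 1 and 4.08 in replicate 2, from the 3 reads that a count of 0 allows. Intervals and limits here cover counting error only. Markers of the muscle lineage were read in both libraries, with 881 and 1187 reads for Des, the muscle intermediate filament, 158 and 168 for Cdh15, the muscle cadherin, and 438 and 454 for Myog, the myogenin gene. Of the determination factors, Myod1 had 119 and 127 reads and Myf5 had 215 and 60, fewer in replicate 2. Ptprc, Cdh5, Epcam and Adipoq, markers of blood, endothelial, epithelial and fat cells, had 0 reads in both. Further markers of other cell types had few: Cd68, of macrophages, had 3 and 2 reads, Pecam1, of endothelium, 0 and 1, Krt18, of epithelium, 1 and 0, and Mbp, of myelin, 0 and 1.

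The sequences of introns that were kept between spliced junctions are shown first, because here the reads hold a whole intron with a junction on each side. Sequences were taken from the retained-intron transcripts of GENCODE M21 (mm10), are written 5′ to 3′, and have the first 6 and last 3 bases of the intron in capitals. The choice was coding introns of at most 300 bases with at least 10 splicing reads in each library, ranked by the reads that keep them in an internal exon. An intron with the start of the minor spliceosome class was added to these. Also added was an annotated intron of Srebf2-205, the member of this kind with the highest share of its gene. No read in either library spliced this Srebf2 segment, so these reads do not show it to be an intron. The sequences lie at chr2:181187737-181187808 (plus strand, Ppdpf), chr17:26938618-26938726 (minus strand, Cuta), chr15:89428545-89428713 (minus strand, Chkb), chr7:30312389-30312590 (plus strand, Alkbh6), chr9:21073182-21073263 (minus strand, Fdx1l), chr10:128548681-128548948 (minus strand, Rpl41), chr15:82169819-82169938 (plus strand, Srebf2) and chr10:80036843-80036914 (minus strand, Polr2e).
Ppdpf: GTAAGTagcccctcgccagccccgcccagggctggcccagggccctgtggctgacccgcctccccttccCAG
Cuta: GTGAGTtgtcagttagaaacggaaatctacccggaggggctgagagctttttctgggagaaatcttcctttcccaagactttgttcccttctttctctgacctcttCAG
Chkb: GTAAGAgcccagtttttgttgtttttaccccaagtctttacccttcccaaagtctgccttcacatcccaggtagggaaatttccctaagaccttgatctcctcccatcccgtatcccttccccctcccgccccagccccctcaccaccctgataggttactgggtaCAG
Alkbh6: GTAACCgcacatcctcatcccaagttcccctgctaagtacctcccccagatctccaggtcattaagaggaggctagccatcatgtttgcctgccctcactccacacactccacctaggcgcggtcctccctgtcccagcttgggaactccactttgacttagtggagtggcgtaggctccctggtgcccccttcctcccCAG
Fdx1l: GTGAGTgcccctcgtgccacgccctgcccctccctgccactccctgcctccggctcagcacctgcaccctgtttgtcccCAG
Rpl41: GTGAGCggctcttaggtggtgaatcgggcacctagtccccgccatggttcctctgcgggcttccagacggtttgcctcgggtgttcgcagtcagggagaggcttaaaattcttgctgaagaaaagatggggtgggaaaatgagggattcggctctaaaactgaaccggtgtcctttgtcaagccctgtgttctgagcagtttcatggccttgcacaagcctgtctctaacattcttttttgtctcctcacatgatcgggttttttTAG
Srebf2: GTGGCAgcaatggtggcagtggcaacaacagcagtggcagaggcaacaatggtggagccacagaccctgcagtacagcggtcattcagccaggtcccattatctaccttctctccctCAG
Polr2e: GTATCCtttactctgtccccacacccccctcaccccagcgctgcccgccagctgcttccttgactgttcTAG

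The Ppdpf intron starts with GTAAGT, is 72 bases long with 75% G and C, and holds a stop codon in the reading frame of the exon before it. Its length divides by 3, as does that of the Polr2e intron, but the Polr2e intron holds no stop in frame. The Polr2e intron starts with GTATCC, a start that is known from introns of the minor spliceosome. The Cuta, Chkb, Alkbh6, Fdx1l and Rpl41 introns each hold a stop in frame. The Srebf2 segment of 120 bases starts with GTGGCA, divides by 3 and holds no stop in frame.

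The label was then checked against the structures. Only 725 of the 2255 members kept a whole annotated intron of at least 50 bases with 10 exonic bases on either side. By this rule 1530 kept none, and what intronic sequence they hold was not measured. Members that kept an intron inside an internal exon, with their own junctions on both sides, numbered 157. A further 293 kept it in their first exon, 139 in their last, 12 in both, and 124 were single-exon models that cover it. Single-exon models numbered 315 in all, and the rest of these are among those that kept none. In 1744 members, all introns of the model occurred in a row in another annotated transcript of the gene that is not a retained intron, and these carried 82.3% of the members' reads. The deposited models of known transcripts have the annotation's own exon ends in 3048 of 3048 structures compared. How far the reads reached into a first or last exon is therefore not visible in these files. These classes were set after the data were seen.

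The members were thinly covered. A single read supported 1161 of them (51.5%), 389 had at least 5 reads, 192 had at least 10 and 11 had at least 100. Together they held 6244 reads in replicate 1 and 4061 in replicate 2, and the 20 with the most reads among those seen in both libraries held 23.4% of these. The median annotated length was 940 bases with 3 exons, against 2324 bases and 7 exons for protein-coding transcripts with a read. Genes with more reads more often had a member. Among read genes that have an annotated retained-intron transcript, 22% had a member at 1 to 9 gene reads and 57.6% at 1000 or more.

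Retained-intron transcripts took 1.04% (95% Wilson interval 1.02 to 1.07) of the reads on known transcripts in replicate 1 and 0.697% (0.676 to 0.718) in replicate 2, which is 0.87% ± 0.246 (SD, n = 2). The intervals do not overlap, and the share of replicate 2 was 0.667 times that of replicate 1. Nonsense-mediated-decay transcripts, the other annotated class tied to RNA turnover, took 0.263% and 0.252%. Their ratio was 0.956, and that of processed transcripts was 0.824. Long intergenic non-coding RNAs took 0.802% and 0.618%, a ratio of 0.771, and the ratio of processed pseudogenes was 0.913. Protein-coding transcripts took 91% and 92.2%.

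The reads of the libraries are given here for each structural class. Members with an intron in an internal exon had 280 and 247 reads, or 353.6 RPM (interval 314.5 to 397.5) and 336 (296.7 to 380.6), and these intervals overlap. Members with the intron in the last exon had 427 and 356 reads, with overlapping intervals as well, and Eprs-204 alone gave 53 and 77 of them. Members that kept it in the first exon had 1451 and 893 reads, and those without a whole intron 3725 and 2349. Single-exon members that keep an intron had 345 and 208. In these the RPM of replicate 2 was 0.663, 0.679 and 0.65 times those of replicate 1, and the intervals do not overlap. Whether the classes differ from each other was not tested.

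**Figure D1:**
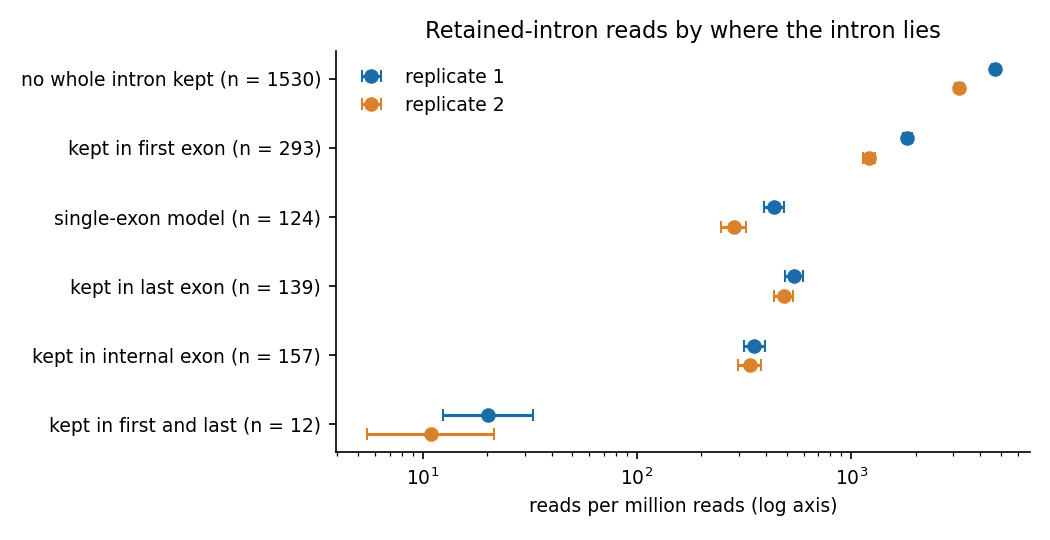
Reads per 1000000 reads of the library (log axis) for the members in each structural class, per library, with 95% Wilson intervals as bars. Replicate 1 lies clear of replicate 2 for members without a whole intron, with one in the first exon, and of a single exon that keeps an intron. The intervals overlap for introns in internal exons (353.6 and 336).

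The libraries detected partly different members: 793 (35.2%) were read in both, 843 in replicate 1 alone and 619 in replicate 2 alone. Among protein-coding transcripts 76% were read in both. Members have fewer reads than protein-coding transcripts, and a gap was also present at matched low counts. A matched count of reads is not a matched level of the transcripts. Of members with 1 read in replicate 1, 29.7% were seen in replicate 2 (interval 26.8 to 32.8), against 51.5% (49.5 to 53.4) of protein-coding transcripts. In the opposite direction, of members with 1 read in replicate 2, 39.9% were seen in replicate 1, against 49.2%. From 6 to 10 reads in replicate 1, 93.8% of members were seen in the other library, against 99.4% of protein-coding transcripts. From 6 to 10 reads in replicate 2, it was 97.1% (interval 89.9 to 99.2) against 99.2% (98.6 to 99.5), and these intervals overlap. Above 10 reads it was 97.2% against 100% from replicate 1, and 100% against 99.96% from replicate 2. Across members, reads of the 2 libraries had Pearson's r of 0.45 and Spearman's rho of 0.131 (n = 2255). Over the 192 with at least 10 reads they were 0.623 and 0.522. Members were admitted by a read in either library, and 1161 had 1 read in all. Each of these has 0 in the other library by that rule, which lowers the values over all members. Those values are therefore no measure of how far the libraries agree. The correlations are descriptions over transcripts, which share libraries and are not replicates.

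Each member's reads were compared between the libraries in 2 ways, with all known transcripts in the same test. The first was the share of the gene's reads, by Fisher's exact test with Benjamini-Hochberg adjustment over 7004 transcripts of at least 10 reads. Of 188 members tested, 13 (6.91%) passed an adjusted p of 0.05 and all 13 had the higher share in replicate 1. The background was 1.66% of all transcripts tested, with 20 higher in replicate 1 and 96 in replicate 2. That direction turned with complete models only (known transcripts plus models with an unannotated set of junctions) in the gene's total: 16 transcripts were called, 13 higher in replicate 1 and 3 in replicate 2, and 9 of the 16 were members, all higher in replicate 1. The second was the level, by an exact binomial test given the library totals over 7925 transcripts. Of 192 members, 18 (9.38%) passed and all 18 were higher in replicate 1, against a background of 2.09% called higher in replicate 1 and 2.45% called higher in replicate 2. The 18 included all 13 of the share test. Members' median log2 ratio of replicate 2 to replicate 1 was -0.65, and that of all transcripts tested was 0.14. Trimmed-mean (TMM) scaling lowers every log2 ratio by 0.142. It called 303 transcripts higher in replicate 1 and 69 in replicate 2, where the library totals gave 166 and 194. It called 31 members, again all higher in replicate 1. Under DESeq2 size factors, which lower the ratios by 0.107, the split was 241 and 79, with 21 members, all higher in replicate 1.

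Transcript length moved with the difference between the libraries. Protein-coding transcripts under 600 bases had a median log2 ratio of -0.36 (n = 182), and those of 1500 to under 3000 bases had 0.26 (n = 3216). Members had -0.99 (n = 52) under 600 bases and -0.4 (n = 37) at 1500 to under 3000 bases. Members lay below protein-coding transcripts in all 5 length ranges. At 3000 bases and more the medians were -0.65 (n = 21) and 0.24 (n = 2117). The part of length in the members' difference was not tested. By class, the 11 tested members with an intron in an internal exon had a median of 0.03 and none called, of which 5 were higher in replicate 1. The 110 without a whole intron had -0.73 with 9 called, and 14 of the 18 called members, like 156 of the 192 tested, had all their introns in common with a spliced transcript.

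**Figure D2:**
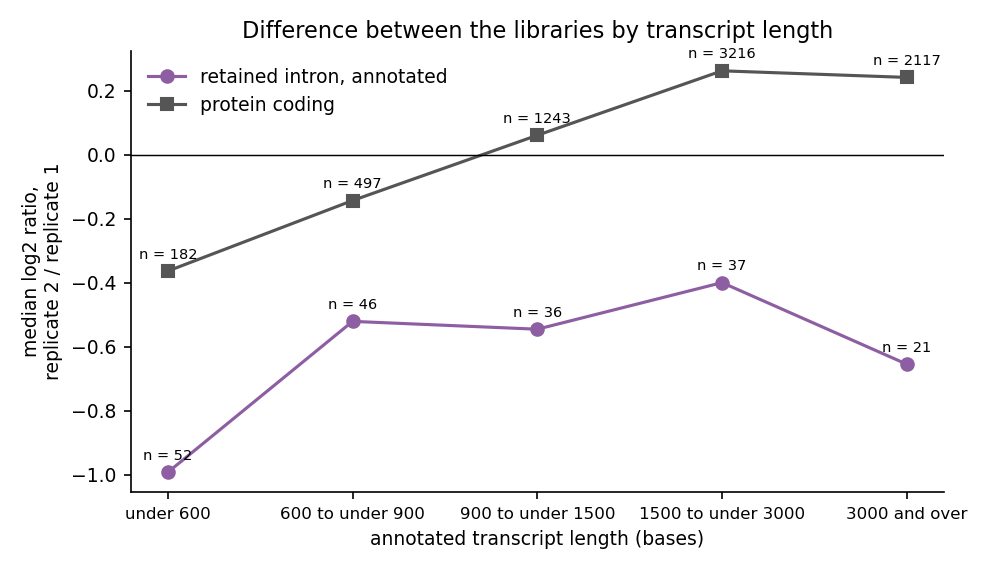
Median log2 ratio of replicate 2 to replicate 1 by annotated length, for members (circles) and protein-coding transcripts (squares) with at least 10 reads; n is the number of transcripts. Members lie below protein-coding transcripts in each range, by most at 3000 bases and over (-0.65 against 0.24).

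**Figure D3:**
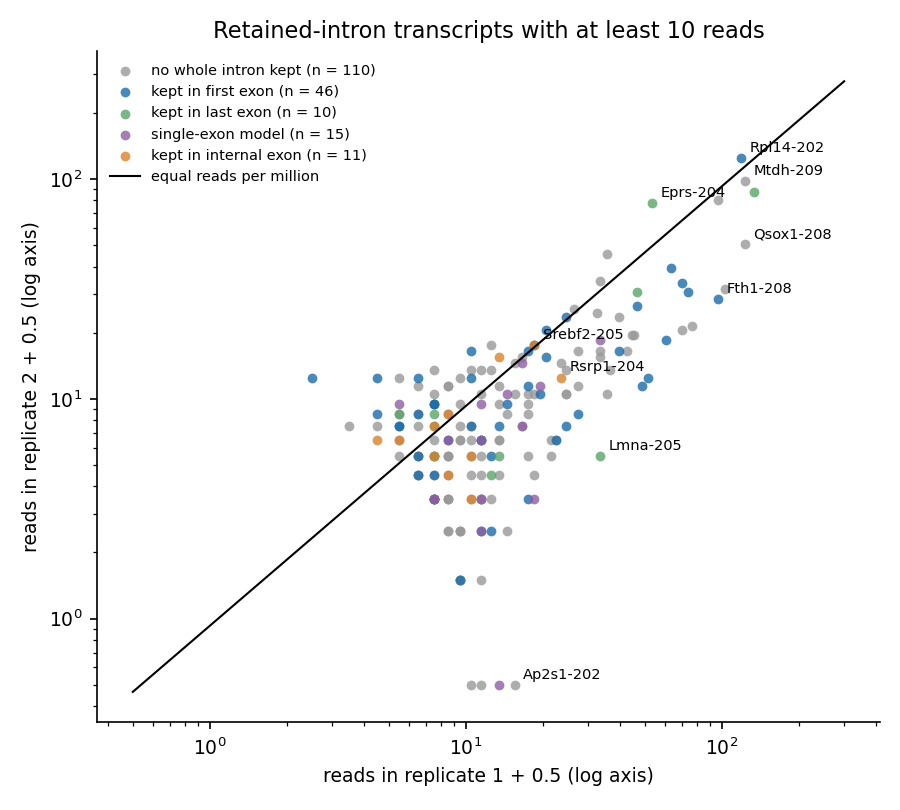
Reads in each library, plus 0.5, on log axes, for the 192 members with at least 10 reads over both libraries, coloured by class. The line marks equal RPM. Most points lie below the line, and the members with an intron in an internal exon (11 points) lie on both sides.

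Ferritin, the iron store of the cell, gave 2 of the called members. Ftl1-206, of the light chain, had 102 and 31 reads among 5561 and 5036 of the gene, a share of 1.83% (1.51 to 2.22) and 0.616% (0.434 to 0.872), with adjusted p = 5.1e-06 in Fisher's exact test. A further member of the light-chain gene, Ftl1-205, had 63 and 39 reads (1.13% and 0.774%) and was called by neither test (adjusted p = 0.606 in Fisher's exact test). Ftl1-206 and Ftl1-205 each overlap an exon of another annotated gene, and the files give no way to separate them. Fth1-208, of the heavy chain, had 96 and 28 reads of 4133 and 3541 (2.32% and 0.791%, adjusted p = 1.88e-05 in Fisher's exact test). Both ferritin genes have processed pseudogenes, so the assignment of reads to them is uncertain.

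Ribosomal protein genes gave 7 of the 18 calls by level and 4 of the 13 by share, from 22 members tested in each, of 192 and 188. Rps4x-203 had 69 and 20 reads among 1703 and 1616 of the gene (4.05% and 1.24%, adjusted p = 0.00011 in Fisher's exact test). Rps20-201 had 76 and 21 reads of 766 and 518 (9.92% and 4.05%, adjusted p = 0.00877 in Fisher's exact test). Rpl36a-206, with 48 and 11 reads, and Rpl4-202, with 42 and 16, passed as well (adjusted p = 0.0356 and 0.0482 in Fisher's exact test). Rpl37a-204, Rps26-202 and Fau-207 passed by level and not by share. Ribosomal protein genes have many processed copies, and the same doubt about assignment applies to them. Rpl4-202 overlaps an exon of another gene as well.

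Other called members came from genes of metabolism, nuclear structure and stress. Eno1-207, of the glycolytic enolase, had 73 and 30 reads among 2982 and 3241 (2.45% and 0.926%, adjusted p = 0.00042 in Fisher's exact test). Lmna-205, of the A-type lamins under the nuclear membrane, had 33 and 5 reads of 1216 and 1386 (2.71% and 0.361%, adjusted p = 0.000118 in Fisher's exact test). Another member of this gene, Lmna-207, had 9 and 12 reads and was not called. Atf4-203, of the transcription factor of the integrated stress response, had 18 and 3 of 201 and 214 (8.96% and 1.4%, adjusted p = 0.0341 in Fisher's exact test). These were small fractions of each gene in both libraries. Sod1-202, of the cytosolic superoxide dismutase, passed by level only, with 51 reads of 188 and 12 of 87.

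Some called members had no read in replicate 2. Ap2s1-202, of a subunit of the clathrin adaptor AP2, had 15 reads of 121 in replicate 1 and 0 of 113 in replicate 2, where up to 2.65% of the gene is allowed. Rnf181-214, of a ubiquitin ligase, had 13 of 135 and 0 of 128, which allows up to 2.34%. Ecm1-207, of an extracellular matrix protein, had 11 of 331 and 0 of 313, which allows up to 0.958%, and passed by level only. Rnf181-214 and Ecm1-207 each overlap an exon of another gene.

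In most genes the members were a small part of the output. Over the 1520 members in genes with at least 20 reads in each library, the median share of the gene's reads was 1.27%, or 1.41% in replicate 1 and 0.833% in replicate 2. For protein-coding transcripts the median was 44.6%, and for nonsense-mediated-decay transcripts 1.75%. At least 10% of the gene's reads were on 74 members, at least 25% on 20, and at least 50% on 1. The gene's most read annotated transcript, ties included, was a member in 57 cases, or 3.75% of the 1520 members. Over all annotated transcripts read in such genes it was 4904 of 10348 (47.4%), and over protein-coding ones 60.1%. In 39 of the 57, several annotated transcripts of the gene were read. Some of the 57 rest on little. Hnrnpk-217, of an RNA-binding protein, led with 0 and 1 reads in a gene of 833 and 808, most of whose reads were on models other than known ones.

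Among genes with at least 20 reads in each library, the highest share belonged to Qsox1-208, a single-exon model of 3395 bases at chr1:155776029-155779423 that keeps no whole annotated intron. Qsox1 is a sulfhydryl oxidase that forms disulfide bonds in secreted proteins. Qsox1-208 had 122 of 158 gene reads in replicate 1 (77.2%, interval 70.1 to 83.1) and 50 of 101 in replicate 2 (49.5%, 40 to 59.1). The intervals do not overlap (adjusted p = 0.00118 in Fisher's exact test). The gene's most read coding transcript, Qsox1-207, moved the other way in reads, with 32 and 42.

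Genes of protein synthesis held several of the largest members. Eprs-204, of the glutamyl-prolyl-tRNA synthetase, has 20 exons and keeps an intron of 2431 bases (chr1:185407754-185410184) in its last exon. It had 53 of 115 reads (46.1%, interval 37.3 to 55.2) and 77 of 147 (52.4%, 44.3 to 60.3), while the coding transcript Eprs-201 had 6 and 12. All reads counted as keeping the intron were those assigned to this model, 53 against 14 splicing reads in replicate 1 and 77 against 22 in replicate 2. Retention counted in this way was 79.1% and 77.8%, with overlapping intervals. Since the intron lies in a last exon, the files do not show how many of these reads span it, and the same holds for every intron counted in a first, last or single exon. Eif2s2-203, of the beta subunit of the initiation factor eIF2, had 133 of 472 reads (28.2%) and 87 of 393 (22.1%), beside 190 and 188 reads of the coding Eif2s2-201. Its last exon covers an intron of 3257 bases (chr2:154884447-154887703), which was kept by 29.9% and 23.1% of informative reads.

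Rpl14-202, of a protein of the large ribosomal subunit, had the most reads of any member: 118 of 1070 (11%, interval 9.29 to 13.1) and 124 of 954 (13%, 11 to 15.3). It keeps a coding intron of 554 bases in its first exon, at chr9:120571542-120572095. That intron was kept by 118 reads and spliced by 793 in replicate 1, and kept by 124 and spliced by 780 in replicate 2, or 13% and 13.7%. The libraries did not differ beyond counting error in either value.

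Several further members were near or above 30% of their gene in both libraries. Mtdh-209, of the membrane and RNA-associated protein metadherin, had 123 of 273 reads (45.1%) and 97 of 226 (42.9%), beside 20 and 14 reads of the coding Mtdh-201. Its annotated length is 4582 bases in 2 exons, against 6919 bases and 12 exons for Mtdh-201. Trappc4-202, of a subunit of the vesicle-tethering TRAPP complex, had 35 of 84 (41.7%) and 45 of 103 (43.7%), close to the 38 and 47 reads of Trappc4-201. Ppp1r14b-202, of an inhibitor of protein phosphatase 1, had 45 of 130 (34.6%) and 19 of 59 (32.2%). Borcs8-204, of a complex that positions lysosomes, had 17 of 52 (32.7%) and 9 of 27 (33.3%). These 4 keep no whole annotated intron, and all their introns are in a spliced transcript too. Ppp1r14b-202 and Borcs8-204 each overlap an exon of another gene.

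Mtch1-218 and Cbx6-208 are single-exon members that do cover introns. Mtch1-218, of an outer mitochondrial membrane protein, had 33 of 107 (30.8%) and 18 of 63 (28.6%). One of its coding introns, of 735 bases, was kept by 33 reads and spliced by 71 in replicate 1, and by 18 and 45 in replicate 2. Cbx6-208, of a Polycomb chromobox protein, had 19 of 35 (54.3%) and 11 of 32 (34.4%), and its intervals of 38.2 to 69.5 and 20.4 to 51.7 overlap. It overlaps an exon of another gene. Mrpl21-203, of the mitochondrial ribosome, had 36 of 80 (45%) and 13 of 57 (22.8%), a difference that did not pass (adjusted p = 0.253 in Fisher's exact test). The remaining members among the 15 highest were Rgs3-207, Ss18l2-203, Fubp3-205 and Cdadc1-207, each with 7 to 16 reads per library. Cdadc1-207 overlaps an exon of another gene.

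**Figure D4:**
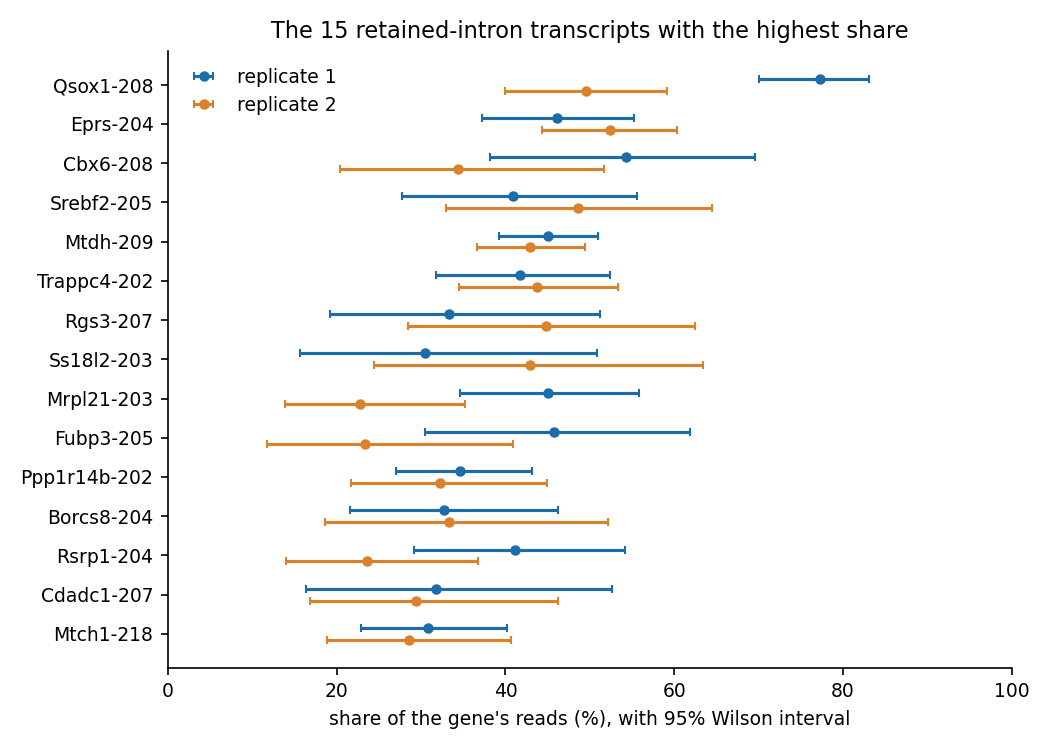
Share of the gene's reads (%) on the 15 members with the highest share in genes with at least 20 reads in each library, for replicates 1 and 2, with 95% Wilson intervals. Qsox1-208 is the member whose intervals lie clear of each other (77.2% and 49.5%), and Eprs-204, Mtdh-209 and Trappc4-202 differ by less than 10 points between the libraries.

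Some members with many reads took only a modest part of an abundant gene. Aqp5-205, of the water channel aquaporin 5, had 96 of 918 reads (10.5%) and 80 of 929 (8.61%). Crip2-203, of a LIM-domain protein, had 33 of 1246 and 34 of 1243, or 2.65% and 2.73%, with overlapping intervals. Metap2-209, of a methionine aminopeptidase, had 46 of 357 (12.9%) and 30 of 342 (8.77%). Igfbp2-203, of a binding protein for insulin-like growth factors, had 44 of 725 (6.07%) and 19 of 713 (2.66%), which missed the threshold (adjusted p = 0.0864 in Fisher's exact test).

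In introns kept inside an internal exon, the model's own junctions flank the intron on both sides. The 157 members of this class keep 227 such introns, of which 26 were spliced by no read, and 4 members keep such introns alone. All models together, known or not, gave 542 and 520 reads that keep them in an internal exon. Members carried 51.7% and 47.5% of these, and 18.8% and 17.9% were on unannotated combinations of known junctions. About as many of these reads lay outside the members as on them.

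Rsrp1-204, of an arginine- and serine-rich protein, had 35 reads over both libraries, as many as Srebf2-205 and more than the other members of this class: 23 of 56 (41.1%, interval 29.2 to 54.1) and 12 of 51 (23.5%, 14 to 36.8). Its intron of 1302 bases at chr4:134925433-134926734 was kept by 24 reads and spliced by 22 in replicate 1, and kept by 12 and spliced by 29 in replicate 2. Retention was 52.2% (38.1 to 65.9) and 29.3% (17.6 to 44.5), intervals that overlap. The intron starts with GTAAGT and holds a stop in frame. Srebf2-205, of the transcription factor that drives cholesterol synthesis, had 18 of 44 (40.9%) and 17 of 35 (48.6%). The segment that makes it a member of this class was kept by 25 and 19 reads and spliced by 0 and 0, so no read here treats it as an intron.

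The 72-base Ppdpf intron was kept in an internal exon by 20 and 18 reads and spliced by 56 and 40, a retention of 26.3% (17.7 to 37.2) and 31% (20.6 to 43.8). Ppdpf-206 held 13 and 15 of these reads, 14.3% and 21.4% of the gene. The Cuta intron was kept by 17 and 13 reads and spliced by 84 and 58 (16.8% and 18.3%), but the member Cuta-213 had 1 read in each library and other models held the rest. The Fdx1l intron, in a mitochondrial ferredoxin gene, was kept in an internal exon by 8 and 8 reads and spliced by 40 and 37 (16.7% and 17.8%). Fdx1l-203, which overlaps an exon of another gene, held 8 and 8.

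Chkb encodes choline kinase beta, which starts phosphatidylcholine synthesis in muscle and elsewhere. Its intron was kept in an internal exon by 10 and 8 reads and spliced by 28 and 37 (26.3% and 17.8%). The 202-base Alkbh6 intron, in a gene of the AlkB dioxygenase family, was kept so by 9 and 7 and spliced by 14 and 19 (39.1% and 26.9%). Intervals of the libraries overlap for both. In abundant genes the same event was rare. The Rpl41 intron was kept in an internal exon by 10 and 6 reads and spliced by 2419 and 1609 (0.412% and 0.371%). The Ddx39 intron of 377 bases, in the gene of an RNA helicase, was kept by 12 and 16 and spliced by 426 and 452 (2.74% and 3.42%). The Polr2e intron, in the gene of a subunit common to the nuclear RNA polymerases, was kept by 5 and 7 and spliced by 220 and 245. The members Chkb-208, Alkbh6-202 and Ddx39-203 each overlap an exon of another gene.

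**Figure D5:**
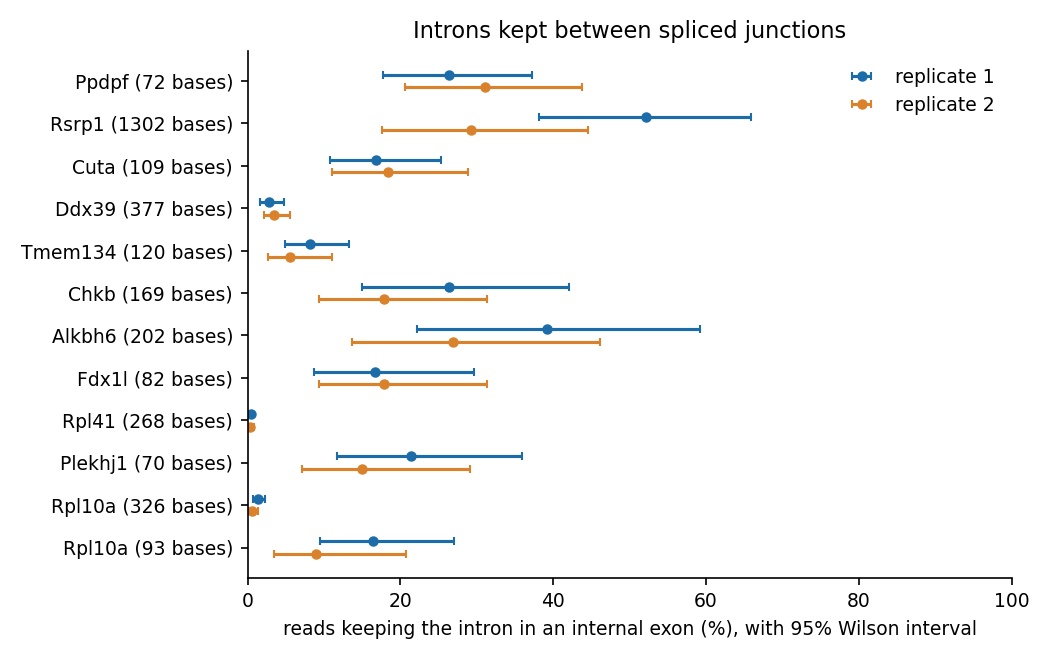
Reads that keep the intron in an internal exon, as % of those reads plus the reads that splice it, per library with 95% Wilson intervals, for introns with at least 10 splicing reads in each library. Ppdpf, Cuta and Fdx1l lie near each other in the libraries, Rsrp1 spans 52.2% and 29.3%, and the Rpl41 and Ddx39 introns lie under 5%.

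Over all exons, 691 introns that members keep could be tested between the libraries. Median retention was 3.85% and 2.56%, against 1.64% and 1.25% over all 5450 introns tested. Retention was under 10% in both libraries for 467 of the 691 and at least 50% in both for 49. Among these 49 were introns that almost no read spliced, such as the 285-base intron in the 5′ UTR of the zinc transporter Slc39a7, kept by 133 reads and spliced by 4 in replicate 1, and by 165 and 6 in replicate 2. Slc39a7-204 itself had 5 and 3 reads, so most of the keeping reads came from other models.

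By Fisher's exact test with Benjamini-Hochberg adjustment, 10 of the 691 introns (1.45%) differed, all more retained in replicate 1, where the background was 0.881% of all introns tested. Of the 48 calls over all introns, 42 were also more retained in replicate 1, so the direction is not particular to members' introns. They lie in 7 genes. The 1197-base Fth1 intron was kept by 185 reads and spliced by 3941 in replicate 1, and kept by 59 and spliced by 3475 in replicate 2 (4.48% and 1.67%, adjusted p = 4.89e-10 in Fisher's exact test). The 521-base Atf4 intron in the 5′ UTR was kept by 14.4% and 1.47% of informative reads, and the 705-base Lmna intron by 10.2% and 1.94% (adjusted p = 0.000146 and 0.0011 in Fisher's exact test). The others lie in Eno1, Rnf181, Ncaph2, of condensin II, and Pcolce, of procollagen processing, besides a second intron each of Fth1, Atf4 and Rnf181. No keeping read was found in replicate 2 for both Rnf181 introns, which allows up to 2.34% and 2.36%, or for the Ncaph2 intron, which allows up to 1.76%. When only internal exons counted as keeping, none of 252 members' introns passed Fisher's exact test after adjustment, and 2 had an unadjusted p under 0.05. Over all introns tested in that way, the number that passed was 0 as well.

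Members kept 1212 distinct annotated introns. Their median length was 254.5 bases, and it was 216 bases for the 227 in internal exons, against 296 and 288 for introns kept by annotated retained-intron transcripts without a read. Median G and C content was 52.2%, against 50.7%. Of the 1212, 97.9% start with GT, and AG ends 99.1%. A start of GTAAGT, the full match to the U1 small nuclear RNA, was found in 6.93% and in 9.7% of the introns of unread transcripts, and GTGAGT in 15.4% and 14%. The start GTATCC, or its form with a leading A in place of the G, was found in 10 of the 1212 (0.825%), 6 of them among the 227 in internal exons, and in 0.654% of introns of unread transcripts. Of the 905 that lie between coding exons, 801 (88.5%) hold a stop in frame, counted on codons that lie wholly in the intron, which is near the 89.3% of unread transcripts. These are descriptions, with no test.

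Gene groups were described by how many of the read genes with an annotated retained-intron transcript had a member, against 31.7% over all genes, and by members' part of the group's reads, against 0.826% and 0.573%. All 18 groups have a higher median of reads per gene than the 34 over all genes, and the presence of a member rises with gene reads. In ribosomal protein genes 42 of 66 had a member, and 57 members held 875 and 410 reads, or 1.26% and 0.751% of the group's reads. In translation factors 17 of 42 had one, with 1.14% and 0.705%, most of it from Eif2s2-203. This list was set by gene symbol and also takes in Eef1akmt2, which encodes no such factor. In aminoacyl-tRNA synthetases 9 of 20 had one, with 2.58% and 3.44%, of which Eprs-204 gave 53 of 60 and 77 of 89 reads.

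Genes that act in splicing itself had members with few reads. Among SR proteins and related factors 13 of 19 genes had one, with 42 and 39 reads (1.81% and 1.77%). The largest was Rbm39-205, with 13 of 256 and 5 of 200 reads. Among splicing kinases 3 of 7 had one. Prpf4b-206, of a kinase that acts on the spliceosome, had 9 of 26 and 9 of 15 reads, so its gene lay under the minimum of 20 reads in replicate 2. Clk4-207 had 1 and 2 reads. For spliceosome core genes the count was 10 of 31, and for hnRNP genes 9 of 18, with Hnrnpr-211 at 11 and 3 reads. RNA helicases had 9 of 25, led by Ddx24-204 at 24 of 94 and 13 of 80. Of genes known for detained introns, 8 of 11 had a member, with 7 and 11 reads in all, and Srsf5-212 and Srsf7-207, which keep an intron in an internal exon, had 2 and 1 and 1 and 2 reads. No member of these groups passed either test, but between 0 and 4 members of each group had enough reads to be tested.

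Among muscle and structural genes, contractile and cytoskeletal genes had 16 of 27 with a member and 150 and 96 reads, 0.387% and 0.269% of the group. Vim-203, of the intermediate filament vimentin, had 39 of 3699 and 23 of 4104, and Myl6-212, of a myosin light chain, had 26 of 1659 and 25 of 1103. Among myogenic regulators 2 of 6 had a member, with 0.523% and 0.815% of the group's reads, led by Id3-203, of an inhibitor of basic helix-loop-helix factors, with 8 of 522 and 11 of 561. Chrnd-203, of the acetylcholine receptor delta subunit, had 10 of 37 and 7 of 45 reads, 20.7% of the gene over both libraries. Extracellular matrix genes had 7 of 15, led by Sparc-203 at 23 of 1626 and 14 of 1580. Lmna-205 was the one called member among these groups, in each of which between 1 and 6 members had enough reads to be tested.

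Glycolysis genes had 6 of 14 with a member and 0.583% and 0.273% of the group's reads, of which Eno1-207 gave 73 of 83 and 30 of 42. Chaperones had 8 of 20, led by Hsp90aa1-206 at 39 of 264 and 16 of 258, and Calr-204, of calreticulin, had 20 of 421 and 20 of 424. Nuclear genes of oxidative phosphorylation had 26 of 56, led by Cox4i1-204 at 27 of 811 and 16 of 532. Proteasome subunits had 13 of 29, in a list set by gene symbol that also takes in Psmc3ip, which encodes no subunit. Host genes of small nucleolar RNAs had 6 of 12. Cell cycle genes had 6 of 21, the lowest share of genes with a member among the 18 groups. Apart from Eno1-207, none of these groups had a called member, but between 0 and 8 members of each had enough reads to be tested. Over all members tested, 6.91% were called by share and 9.38% by level, so few or no calls say little about these groups.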

How the data were processed

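The deposited tables hold raw counts of long reads per transcript model, for models with at least 1 read. Per the file headers, the authors used mm10 and GENCODE M21, and unannotated models come from TALON. No source used here names the aligner, its version or the filters. Samples were grouped by the labels into 1 group of 2 libraries.

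Members were taken by transcript type, and the members and gene lists were chosen with earlier results of these data known. Python 3.11.15 with scipy 1.17.1 was used for Fisher's exact and exact binomial tests, with Benjamini-Hochberg adjustment over all transcripts or introns tested, and log2 ratios used an offset of 0.5 reads. Minimums were 10 transcript reads, 10 gene reads per library in tests, 20 in median shares, and 10 informative reads per library for introns. Tests were checked on simulated counts with sampling error and set changes only, so the check does not cover other differences between the libraries. edgeR 4.0.16 and DESeq2 1.42.0 gave alternative scalings. P-values measure the difference between 2 libraries, not between conditions. Named were the 20 members with most reads, the 15 with the highest share, those called (up to 15 by adjusted p), the 2 with most reads in each of 18 lists and the 10 introns with most keeping reads. Called members past the first 15, Chrnd-203, Hnrnpk-217 and the internal-exon examples were added after their values were seen. A called member is not reported here.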

Additional observations from a re-analysis of the deposited data

How the results depend on the processing

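The number of members with a read depended on what was asked of it. Of 2255, there were 793 with a read in both libraries, 1094 with at least 2 reads, 389 with at least 5, and 157 that keep an intron in an internal exon, an alternative chosen after seeing the data. Without models that overlap an exon of another gene there were 1866. With 1 library left out the number was 1412 (without replicate 1) to 1636 (without replicate 2). Their part of known-transcript reads was 0.697% to 1.04% with 1 library left out, and 0.0446% for introns in internal exons. The median share of gene reads was 0.794% at a gene minimum of 50 reads, and 0.833% to 1.41% with 1 library left out. The most read transcript, ties included, was a member in 108 cases at a minimum of 10 gene reads and in 20 at 50, and in 49 to 57 with 1 library left out.

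Called members by share numbered 4 without members whose introns are all in a spliced transcript, chosen after seeing the data. By level there were 31 under TMM scaling and 4 without such members. Called introns numbered 4 with complete models only and 0 in internal exons only. With complete models only, the calls over all transcripts by share fell from 116 to 16, and over all introns from 48 to 4. Every called member in the alternatives of the share and level tests was higher in replicate 1. For introns this held except with 50 bases past each end, where 10 of 12 were. No paired analysis was possible because there is 1 group. Depth limits single members: 1161 had 1 read in all.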
